A study of Mus musculus with 30 samples.

Results

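Cytosolic ribosomal protein genes were followed in RNA-seq of sorted mouse microglia, the resident macrophages of the brain, in which *Bin1* was deleted. The members were chosen by symbol, as Rpl or Rps followed by a number, with Rplp0, Rplp1 and Rplp2, and without Rpsa, Rpl14, ribosomal S6 kinases and symbols ending in -ps. Of 81 matching symbols, 79 were annotated as protein-coding, and 77 of these had a mean of at least 1 FPKM (fragments per length of transcript, scaled to the fragments mapped in the library). These 77 genes, 30 for the small and 47 for the large subunit, stand among 47643 genes listed and 16897 tested. By their limit of 1 FPKM, all of them pass the filter on low values, a mean of at least 0.1. They lie on 19 chromosomes, with 14 on chromosome 7 and 4 on X. The lowest mean inside the limit was that of *Rpl39l*, at 1.34 FPKM, followed by *Rps12* at 8.75, and the means just outside were 0.0036 for *Rpl3l* and 0 for *Rpl10l*. The matching pseudogenes *Rps4l* and *Rpl6l* were left out.

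The 30 libraries came from mice of 3 months of age, with 1 library per mouse and a label of genotype, sex (M or F) and mouse number. Homo mice carried *Bin1* flox/flox with Cx3Cr1-Cre+ (5 males, 5 females), Het mice carried *Bin1* wt/flox with Cx3Cr1-Cre+ (6 males, 5 females), and mice labelled WT (5 males, 4 females) carried *Bin1* wt/flox without Cre. All groups thus held at least 1 floxed allele, and the effect of the Cre allele, which sits in *Cx3cr1*, cannot be told apart from that of losing the first *Bin1* copy. The methods describe a CD11b+ CD45med sort, while the sample records give a protocol for cultures from newborn pups. The former was followed, and which holds was not tested.

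*Bin1* was at 230.3 to 289.5 FPKM in the WT libraries and at 39.5 to 55.6 in the Homo libraries. It was at 117 to 164 in the Het libraries, with the exception of the library labelled Het-F-0206, at 42.7, and the library labelled Het-M-0199, at 51.8. *Cx3cr1* was at 1829 to 2344 FPKM in WT and at 610.0 to 1243 in Cre-positive libraries, and at 13.9 in the library labelled Het-F-0206. The 10 microglial marker genes summed to between 16663 and 25302 FPKM in every library, and the summed 8 neutrophil markers reached 349 in male WT libraries and 80.8 in male Homo libraries. Mouse numbers were early (up to WT-F-0122) in 2 male Het, 3 male Homo and 1 female WT mice and late (from WT-M-0176 on) in all others, so number range and genotype were partly confounded in males.

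Ribosomal proteins assemble with ribosomal RNA into the small subunit, which reads the mRNA, and the large subunit, which joins amino acids. Their mRNAs are known for a start site rich in C and T, the terminal oligopyrimidine (TOP) tract, through which the mTOR pathway and the RNA-binding protein Larp1 adjust the translation of all of them together. Some members have further known roles, such as Rpl5 and Rpl11, which bind the p53 regulator Mdm2 when ribosome assembly is disturbed.

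Start sites were taken from the RefSeq promoter windows of GRCm38.p6, which run from 250 bases before to 50 bases after a start. They hold 68 windows for 57 of the 77 genes. A C on the start base followed by 4 or more C or T was found in 12 of the 68 windows (17.6%), against 2.51% of all 32851 windows. Such a tract began within 5 bases of the start in 42.6% against 18.3%. The letters CCGGAAG, on either strand, stood in 36.8% against 8.86%, AAGATGGC in 10.3% against 2.75% and TATAAA in 8.82% against 13.6%. A tract that begins with CTTCC can overlap the reverse strand of CCGGAAG. The stretches below show this start for genes described in the next paragraphs, from 10 bases before the start, with the tract in capitals.

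Rpl28 (chr7:4792955-4792984, plus strand): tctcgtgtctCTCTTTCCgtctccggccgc
Rplp2 (chr7:141447641-141447670, plus strand): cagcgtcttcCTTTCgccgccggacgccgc
Rpl38 (chr11:114668570-114668599, plus strand): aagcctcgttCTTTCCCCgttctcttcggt
Rps6 (chr4:86857348-86857377, minus strand): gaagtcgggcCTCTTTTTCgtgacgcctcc
Rps27 (chr3:90213629-90213658, minus strand): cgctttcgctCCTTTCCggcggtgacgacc
Rpl13a (chr7:45128726-45128755, minus strand): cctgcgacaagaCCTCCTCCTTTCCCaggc
Rps27l (chr9:66946076-66946105, plus strand): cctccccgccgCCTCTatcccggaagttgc

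The tract began on the start base in the first 5 of these stretches, 2 bases after it in *Rpl13a* and 1 base after it in *Rps27l*. The *Rps27l* stretch also holds CCGGAAG. The highest library was 2.60 times the lowest for *Rplp2* and 6.14 times for *Rps27*.

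The level per transcript length differed widely between members. The median of the mean FPKM was 80.4, with 26 members above 100 and 6 below 20. The highest means were those of *Rpl41*, the smallest large subunit protein, at 215.5 FPKM, *Rps29* at 214.5 and *Rpl13* at 211.6. Between these 3 the differences were far smaller than the spread over libraries, since *Rpl41* alone ran from 110.2 to 495. The lowest were *Rpl39l*, *Rps12* and *Rpl12* (9.66 FPKM).

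Close relatives within the family were not listed at like levels. *Rpl36al* was at a mean of 131 FPKM (96.2 to 188 over the 30 libraries) and its X-linked relative *Rpl36a* at 31.4 (18.9 to 58.2), without overlap. *Rps27* was at 204 FPKM (80.0 to 491) and *Rps27l*, a p53 target in other cells, at 113 (57.0 to 309), with overlap. *Rpl39* was at 48.6 FPKM (26.0 to 89.1) and *Rpl39l*, known mainly from testis, reached 4.78 in its highest library and was listed at 0 in its lowest. The stalk proteins that recruit elongation factors were close to each other, with *Rplp0* at 122.7, *Rplp1* at 120.0 and *Rplp2* at 95.2 FPKM.

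The members varied together. Over the 30 libraries, Pearson's r between members on the log2 scale had a median of 0.70 over 2926 pairs, and 92.8% of the pairs were positive. For small subunit members the median was 0.81 and for large subunit members 0.66. For 16 translation factors and other TOP mRNAs it was 0.40, for the 78 mitochondrial ribosomal protein genes 0.31 and for 29 ribosome assembly factors 0.10. All these r share the same libraries, their depth and their scaling, and are given as a description. The SD within groups had a median of 0.31 on the log2 scale over members, against 0.21 over the 6257 protein-coding genes with a mean of at least 10 FPKM. *Rplp0* was the steadiest member, with an SD of 0.17 over all libraries and a highest library only 1.55 times its lowest. *Rpl12* (6.31 times), *Rps27* (6.14), *Rps27l* (5.42), *Rps24* (5.08) and *Rps15a* (5.04) spanned more, and *Rps12* and *Rpl39l* reached 0 or nearly 0.

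**Figure D1:**
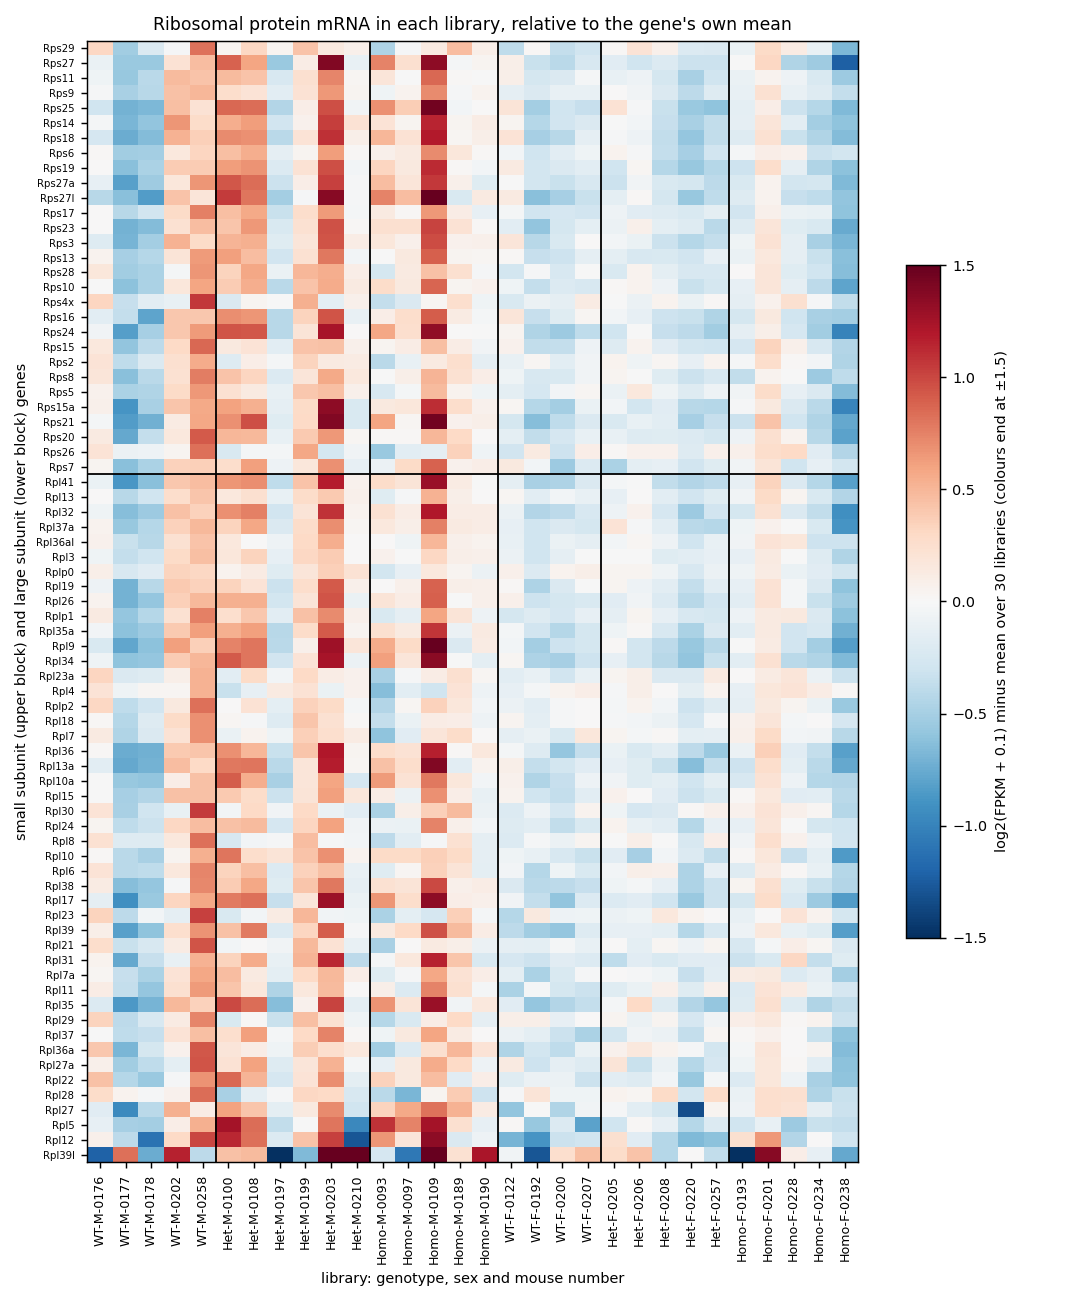
Deviation of log2(FPKM + 0.1) from the gene's own mean over 30 libraries, without scaling between libraries, for 75 members (rows, *Rps12* among those left out) in each library (columns, ordered by group). Whole columns are red (Het-M-0203, Homo-M-0109, WT-M-0258) or blue (WT-M-0177, WT-M-0178, Homo-F-0238), while *Rpl4*, *Rpl23* and *Rpl28* are pale or blue in some red columns.

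As a share of the summed FPKM of a library, the 77 genes took 0.986%, 1.07%, 1.37%, 1.57% and 1.84% in the 5 male WT libraries. In male Homo libraries the share was 1.34%, 1.40%, 1.44%, 1.45% and 2.17%, and in the 6 male Het libraries it ran from 1.20% to 2.08% with a median of 1.63%. The male groups therefore overlapped over most of their range. In females the share was 1.14% to 1.29% in WT (n = 4), 1.10% to 1.30% in Het (n = 5) and 0.927% to 1.48% in Homo libraries (n = 5). The mean ± SD was 1.52 ± 0.33% over the 16 male and 1.21 ± 0.13% over the 14 female libraries. The male mean was 1.70% in early Cre-positive (n = 5), 1.49% in late Cre-positive (n = 6) and 1.37% in WT libraries (n = 5, all late). The difference between the sexes was not tested. In bulk samples fewer cells of a type and less RNA per cell cannot be told apart.

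**Figure D2:**
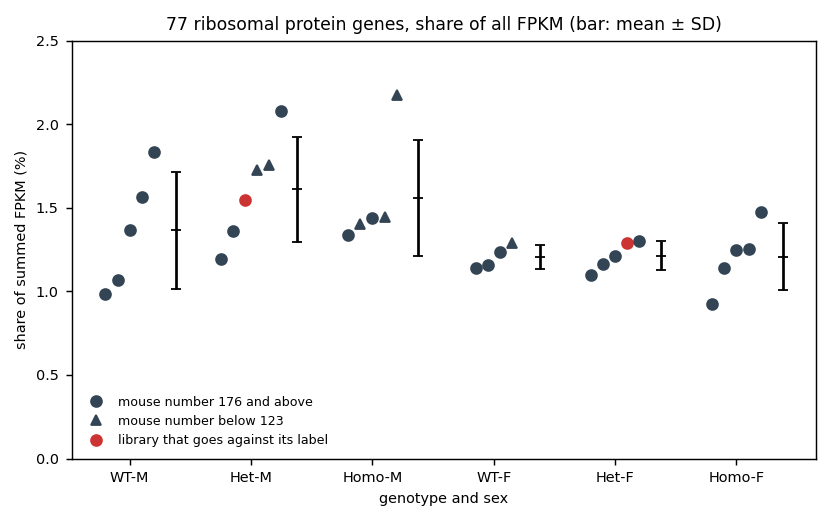
Share of the summed FPKM taken by the 77 genes (y axis, percent) in each library (points) by genotype and sex, with mean ± SD as a bar. Triangles are early mouse numbers and red points the libraries labelled Het-F-0206 and Het-M-0199. The male WT points alone span 0.986% to 1.84%.

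Some libraries differed in nearly all members at once. After scaling, 76 of the 77 genes were above their own mean in WT-M-0258 and in the library labelled Het-M-0199, and 72 in Homo-F-0201. In Homo-M-0109 and Het-M-0203, which had the highest shares, 65 and 69 genes were above their own mean. In contrast, 75 were below it in Homo-F-0238 and 73 each in WT-M-0177 and WT-M-0178. The number above ran from 4 to 76 in male WT, 18 to 76 in male Het and 34 to 68 in male Homo libraries. In female WT, Het and Homo libraries it ran from 7 to 27, 6 to 31 and 2 to 72. Male WT and female Homo libraries thus stood at both ends.

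The share was related to measures of the library itself. Over 30 libraries, its Pearson's r with the summed microglial markers was -0.73 (permutation p = 0.00014, adjusted p = 0.00032, and Spearman's rho -0.68, permutation p = 8e-05). With the mitochondrial share of FPKM r was 0.61 (permutation p = 0.0014, adjusted p = 0.0019, and rho 0.55, permutation p = 0.0018) and with relative sequencing depth, estimated from the smallest steps between low FPKM values, -0.47 (permutation p = 0.0065, adjusted p = 0.0065, and rho -0.55, permutation p = 0.0023). In this family of 4 relations, tested two-sided, the marker sum without *Cx3cr1* gave r = -0.72 (permutation p = 0.00016) and rho = -0.55. Leaving out the 2 libraries farthest from the median gave -0.83, 0.63 and -0.48 for the first 3 measures.

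Within the 16 male libraries r was -0.70 for the markers, 0.55 for the mitochondrial share and -0.60 for depth (permutation p = 0.0049, 0.034 and 0.011). Within the 14 female libraries it was -0.38, -0.05 and -0.11 (permutation p = 0.18, 0.87 and 0.68). Without the 2 libraries farthest from the median of each measure, r was -0.87, 0.67 and -0.53 in males and -0.38, -0.18 and -0.53 in females. The female relation with depth thus went from -0.11 to -0.53 without WT-F-0122 and WT-F-0207, and whether the sexes differ was not tested. Within the 24 late numbered libraries the marker relation was -0.76, and it fell to -0.31 without Het-M-0203 and WT-M-0258, on which it rests. The part of these measures in the results below was not tested.

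Homo and WT males were compared to learn whether deletion of *Bin1* moved these mRNAs. By limma with Benjamini-Hochberg adjustment over all genes tested, 0 of the 77 members were called in male Homo mice at an adjusted p of 0.05, against 2.82% of all genes. The smallest adjusted p of a member was 0.092. At an unadjusted p below 0.05 there were 13 members (16.9%), 9 higher and 4 lower, against 22.5% of all genes (12% higher, 10.5% lower). The log2 fold change, on the log2(FPKM + 0.1) scale, had a median of 0.15 over members and of 0.03 over all genes, and it was above 0 in 55 members (71.4% against 53.6% of all genes). The median was 0.25 over the 30 small subunit members, of which 24 were above 0, and 0.07 over the 47 large subunit members, of which 31 were, and the difference between the subunits was not tested. A typical member had a standard error of 0.19 and an unadjusted 95% interval of ± 0.38. Changes smaller than that were not detectable for it, and larger ones could also fail to pass adjustment. Since the members varied together, the counts above are not of independent genes. The median deviation of the members in a library had an SD within groups of 0.25 on the log2 scale, and of 0.41 in male WT.

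The highest estimate in male Homo mice was that of *Rps12*, 0.78 (95% interval -2.73 to 4.28, adjusted p = 0.82), which is described with its copies below. *Rps27l* came next, at 76.8, 66.3, 57.0, 138 and 116 FPKM in male WT and at 172, 141, 309, 87.1 and 112 in male Homo libraries. The groups overlapped, and the estimate was 0.71 (95% interval 0.16 to 1.26, adjusted p = 0.12). *Rpl5* (estimate 0.66, adjusted p = 0.14), *Rps25* (0.62, adjusted p = 0.13) and *Rpl27* (0.56, adjusted p = 0.13) followed. *Rpl5* was at 8.93 to 18.6 FPKM in male WT and at 27.3, 21.6, 30.7, 15.1 and 11.8 in male Homo libraries. *Rps25* was at 107.1 to 238.4 FPKM in male WT and at 282, 226, 477, 169.99 and 176.02 in male Homo libraries. For *Rpl27*, a large subunit gene mutated in Diamond-Blackfan anaemia, the FPKM were 12.6, 7.27, 10.7, 20.6 and 15.3 in WT and 17.8, 21.0, 25.1, 20.4 and 15.4 in Homo libraries. Its means of 13.3 ± 5.02 and 20.0 ± 3.63 FPKM (SD, n = 5 each) gave an exact permutation p = 0.048, which did not pass adjustment (adjusted p = 0.72). Here and in the next 2 paragraphs, the first 3 male Homo values are of early numbered mice and the last 2 of late ones. All 5 male WT libraries are late. For *Rpl5* and *Rps25* the late Homo values lay inside the WT range, as did the early *Rps25* value of 226 FPKM. The other early values of both genes lay above it. The fit that gave these estimates held no term for number range, and *Rpl5* was also called higher in early than in late Cre-positive males (below).

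The 4 members lower at an unadjusted p below 0.05 were all of the large subunit, among them *Rpl28*, *Rpl4*, which lines the tunnel through which the new protein leaves, and *Rpl8*. *Rpl28* was at 20.7, 17.7, 16.9, 17.9 and 30.6 FPKM in male WT and at 13.0, 10.6, 17.6, 22.3 and 13.8 in male Homo libraries, an estimate of -0.52 (95% interval -0.91 to -0.13, adjusted p = 0.11). *Rpl4* was at 114, 94.4, 101.2, 100.9 and 142 FPKM in WT and at 63.3, 88.3, 80.0, 114 and 93.8 in Homo libraries, an estimate of -0.42 (95% interval -0.72 to -0.13, adjusted p = 0.092). Both pairs of groups overlapped, with Homo-M-0189 the highest Homo library for both genes. Without Homo-M-0189, 4 members and 8.16% of all genes passed, and among these members *Rpl28* (-0.69, adjusted p = 0.027) and *Rpl4* (-0.55, adjusted p = 0.022) fell and *Rps27l* rose (0.88, adjusted p = 0.046). Homo-M-0189 is among the 2 late numbered male Homo mice. The fit without it held no term for number range, whose part in these calls was not tested. Without WT-M-0202, where 5.82% of all genes passed, *Rpl27* rose (0.73, adjusted p = 0.047).

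In male Homo mice the stalk genes *Rplp0*, *Rplp1* and *Rplp2* had estimates of -0.20, -0.04 and -0.19. *Rplp0*, often used as a reference gene, was at 129.5, 103, 107.8, 153 and 151 FPKM in WT and at 100.9, 112, 136, 126 and 115 in Homo libraries (adjusted p = 0.26). *Rps6*, the target of S6 kinase, was at 0.25 (adjusted p = 0.30), *Rpl11* at 0.07 (adjusted p = 0.83) and *Rpl38* at 0.32 (adjusted p = 0.31). *Rpl13a*, known for a role in translational silencing outside the ribosome, was at 0.49 (adjusted p = 0.23).

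In male Het mice 0 of the 77 members passed, where 0.172% of all genes did. These 6 libraries include the library labelled Het-M-0199, with *Bin1* at 51.8 FPKM and 76 members above their own mean. At an unadjusted p below 0.05 there were 15 members (19.5%), all of them higher, against 14.2% of all genes in either direction and 7.47% in that direction. The median estimate was 0.23 over members and 0.01 over all genes, and 61 members were above 0 (79.2% against 51.9%). With each library left out in turn, this median ran from 0.12 to 0.37. The members varied together, so these counts are not of independent genes. Their median deviation in a library had an SD within groups of 0.25 on the log2 scale. *Rpl10*, an X-linked gene whose product is added late in large subunit assembly, was at 62.7, 46.8, 44.2, 64.1 and 89.6 FPKM in male WT libraries and from 64.7 to 108.6 (median 79.0) in male Het libraries. Its estimate of 0.39 (95% interval 0.09 to 0.70) had the smallest adjusted p of all members, 0.28. The Het libraries lay toward the high end of the WT range and overlapped with it. Listed copies held 68.3% of the summed FPKM of *Rpl10*. Summed with these copies, its male Het estimate was 0.08 (SE 0.13, adjusted p = 0.78). The male Homo and Het comparisons share their WT libraries, so they are not independent, and *Rps27l* (0.62) and *Rpl28* (-0.36) had the same sign in both.

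In females 0 of the 77 members passed in Homo mice, where 0.071% of all genes did, and 0 in Het mice, where 0.136% did. The female Het group includes the library labelled Het-F-0206, with *Bin1* at 42.7 FPKM. At an unadjusted p below 0.05 there were 0 members in either comparison, against 3.49% and 3.95% of all genes. The median estimates were 0.02 and 0.02, with 44 members above 0 in each (57.1% against 50.3% and 50.2%). A typical 95% interval was ± 0.40, so effects as large as the male medians lie inside it. *Rpl36a* was at 22.3, 25.2, 23.4 and 28.3 FPKM in female WT and at 31.8, 34.0, 31.7, 30.2 and 25.2 in female Het libraries (exact permutation p = 0.032, adjusted p = 0.72). Only 1 Het library lay inside the WT range, and the estimate was 0.29 (95% interval -0.15 to 0.74).

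An interaction term tested whether the sexes differed. For Homo mice 0 members passed, with 2 at an unadjusted p below 0.05 and a median difference, male minus female, of 0.16. For Het mice it was again 0, with 2 unadjusted and a median of 0.18. The smallest adjusted p of a member was 0.53, for *Rpl4* in Homo mice (-0.50), and 0% of all genes passed in either interaction, with 9.29% and 4.53% at an unadjusted p below 0.05. Homo minus Het gave 0 members in males (0% of all genes, median -0.07) and 0 in females (0.0118% of all genes, median -0.00099), with 0 members at an unadjusted p below 0.05 in either (3.85% and 2.06% of all genes). The Het groups here include the libraries labelled Het-M-0199 and Het-F-0206, whose *Bin1* lay in the range of the Homo libraries.

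In the exact permutation tests on deposited FPKM, 3 of 124 comparisons of 31 named members had an unadjusted p below 0.05 and 0 passed adjustment. Of the 77 members, 0 were without overlap between the groups in any of the 4 comparisons with WT, where 3.94% of all genes tested were in male Homo, 0.84% in male Het, 2.31% in female Homo and 2.21% in female Het mice.

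**Figure D3:**
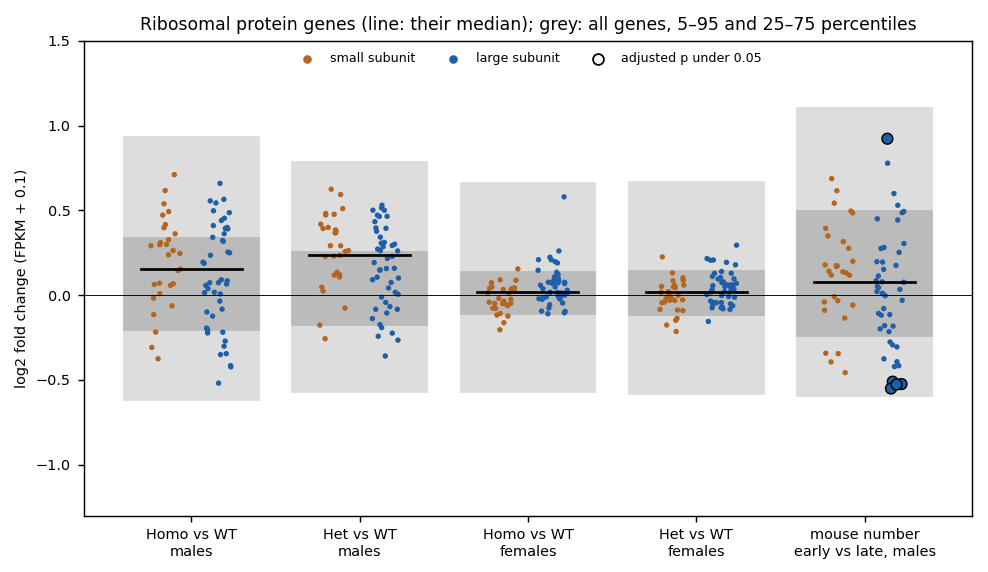
Log2 fold change of each member (points by subunit, *Rps12* left out) in 4 genotype comparisons and between early and late mouse numbers, with the median of the members as a line and the percentiles of all genes in grey. Members spread more widely in the male than in the female comparisons, and outlined points (adjusted p below 0.05) appear between early and late numbers alone.

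Early and late numbered Cre-positive males were compared with genotype as a term (5 against 6 libraries). Here 1 member was higher in early mice and 4 were lower, 6.49% of the 77, against 15.9% of 17326 genes tested. At an unadjusted p below 0.05 there were 25 members (32.5% against 33.1%), and the median estimate was 0.08 over members and 0.10 over all genes. Without scaling, which moved the median of all genes to 0.23, the split turned to 4 higher and 1 lower.

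*Rpl5* (chr5:107900502-107909005 in GENCODE M21) was the member that was higher. It was at 30.5, 23.0, 27.3, 21.6 and 30.7 FPKM in the early and at 9.92, 12.7, 22.4, 6.50, 15.1 and 11.8 in the late libraries. Only Het-M-0203 among late libraries reached the early range, and the estimate was 0.92 ± 0.22 (SE, adjusted p = 0.022). *Rpl11*, its partner in the particle that also holds the small ribosomal RNA of the large subunit, had an estimate of 0.02 (95% interval -0.33 to 0.38).

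*Rpl4* was lower in early mice, at 80.2 ± 10.8 FPKM (SD, n = 5) against 104.5 ± 9.85 (n = 6), with every early library below every late library and an estimate of -0.53 (adjusted p = 0.024). *Rpl28* (-0.55, adjusted p = 0.041) and *Rpl23* (-0.51, adjusted p = 0.032) were lower as well. *Rpl28* was at 10.6 to 17.6 FPKM in early and at 13.8 to 22.3 in late libraries, and *Rpl23* at 37.96 to 51.4 and at 50.5 to 74.6. The early libraries lay at the low end for both genes and overlapped with the late ones. All 5 called genes belong to the large subunit, as do 47 of the 77 members. At an unadjusted p below 0.05 there were 9 of 30 small and 16 of 47 large subunit members. *Rpl23* was chosen after its values were seen. Of the 11 alternative settings, *Rpl5* and *Rpl4* passed in 10 each, *Rpl23* in 8 and *Rpl28* in 7, and *Rpl5* and *Rpl4* passed with 8 of the 11 libraries left out in turn. The number called was 0 without Het-M-0100 or without Homo-M-0189, where 0.0058% and 0.0057% of all genes passed. It was 26 without Het-M-0203 (28.9% of all genes) and 1, *Rpl5*, without Homo-M-0093 (5.59% of all genes). Without the library labelled Het-M-0199, where 9.48% of all genes passed, it was 2, *Rpl5* (0.94, adjusted p = 0.039) and *Rpl4* (-0.51, adjusted p = 0.044). Early libraries had a relative depth of 0.67 to 0.92 and late ones of 0.73 to 1.41, and their mitochondrial shares were 1.21% to 2.27% and 1.08% to 1.78%. The summed FPKM of 4 erythroid markers was 32.1 to 77.3 in the 5 early libraries and 0 to 13.6 in 5 of the 6 late ones, with Het-M-0210 at 79.3. The microglial markers summed to 16663 to 22746 FPKM in the early libraries and to 24026 to 25075 in 5 of the 6 late ones, with Het-M-0203 at 19304. The part of these values in the result was not tested.

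**Figure D4:**
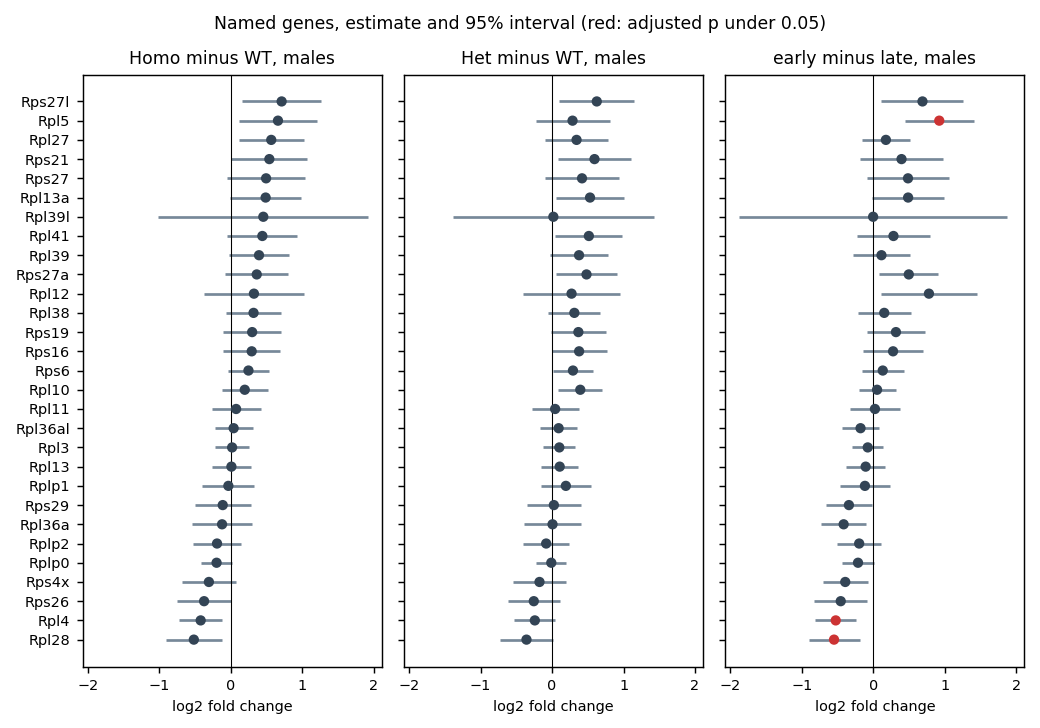
Log2 fold change with its 95% interval (x axis) of 29 named members (y axis, ordered by the male Homo estimate) in male Homo and Het mice against WT and between early and late numbered males. The lowest 2 genes in male Homo mice, *Rpl28* and *Rpl4*, are also the red points below 0 in the right panel, and these comparisons share the Homo libraries.

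Near-identical copies limited some members. Of the 77 genes, 56 had listed copies (263 in all, with the gene's symbol and the ending -ps or rt), and in 11 the copies held over 10% of the summed FPKM. For *Rps12* the share in copies was 85.4%, for *Rpl27* 85.4%, for *Rpl10* 68.3% and for *Rpl28* 62.3%, and how the counting divided reads among them could not be checked. *Rps12* was below 0.001 FPKM in 8 libraries while *Rps12-ps3* was at 17.5 or more in every library, and *Rps12* had the largest estimates of any member, such as 2.18 in male Het (95% interval -1.18 to 5.53) and -2.49 in female Homo mice (-6.21 to 1.22). Summed with its copies, *Rps12* gave 0.71 (SE 0.28, adjusted p = 0.29) and -0.09 (SE 0.31, adjusted p = 1). With all members summed with their copies, a setting chosen after seeing the data, 0 members passed in any genotype comparison.

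**Figure D5:**
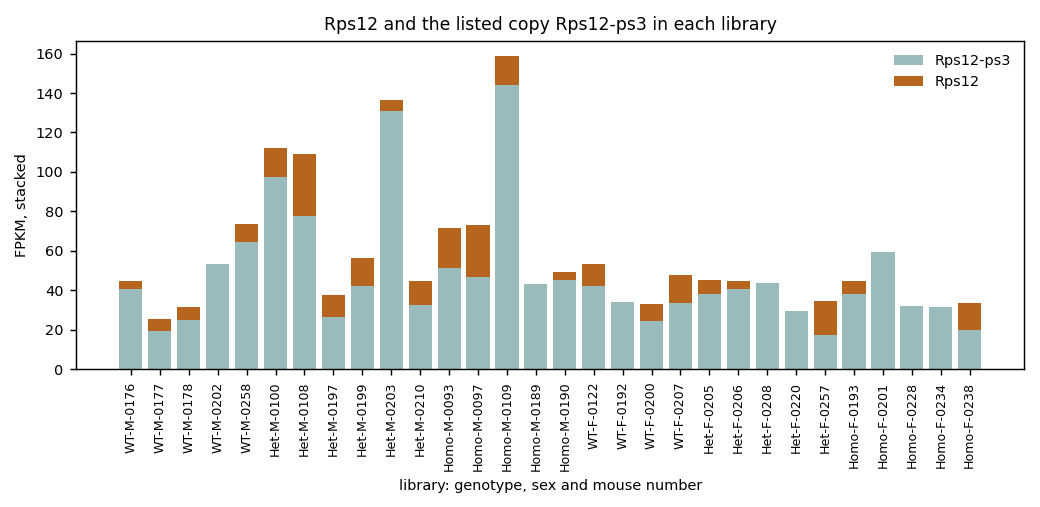
FPKM of *Rps12* stacked on that of *Rps12-ps3* (y axis) in each library (x axis, by group). The *Rps12* part is missing in 8 libraries of 5 groups, while the sum is highest in Homo-M-0109 and Het-M-0203.

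Genes of the same pathway were described from lists. Of all genes tested, 2.82% passed in male Homo, 0.172% in male Het, 0.071% in female Homo and 0.136% in female Het mice. A count of 0 in a list is near these shares and is no result about its genes. Of 19 members mutated in Diamond-Blackfan anaemia, 0 passed in any genotype comparison (median estimate 0.25 in male Homo and 0.29 in male Het mice). Of 5 other ribosomal proteins outside the symbol rule, 0 passed in any genotype comparison. For *Rpl22l1*, a relative of *Rpl22*, male WT libraries averaged 23.6 ± 10.2 FPKM (SD, n = 5) and male Homo libraries 44.6 ± 17.4 (n = 5) (estimate 0.86, adjusted p = 0.062). Of 16 translation factors and other TOP mRNAs, 0 passed, with medians of -0.14 and -0.08 in male Homo and Het mice, where the members' medians were above 0. Among them *Eef2*, which moves the ribosome along the mRNA, had an estimate of -0.56 in male Homo mice (adjusted p = 0.087) and *Eif4b*, a helper of the initiation helicase, one of -0.48 (adjusted p = 0.087).

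Of 12 regulators of TOP mRNAs, among them *Mtor* and *Larp1*, 0 passed in a genotype comparison, as did 0 of 29 ribosome assembly factors and 0 of 78 mitochondrial ribosomal protein genes. Of all genes tested, 2.82% passed in male Homo mice against WT and a smaller share in each other genotype comparison. Between early and late numbered males, where 15.9% of all genes passed and their median log2 fold change was 0.10, 7 of the 16 translation factors and TOP mRNAs were lower and 1 higher, with a median of -0.34. *Eef1g* (-0.66, adjusted p = 0.019), *Eif4b* (-0.54, adjusted p = 0.032) and *Eef1a1* (-0.51, adjusted p = 0.028) were lower, and *Gas5*, the noncoding host of small nucleolar RNAs, was higher (0.56, adjusted p = 0.020). Of the 29 assembly factors 5 were lower and 1 higher, *Nop58* (-0.74, adjusted p = 0.016) and *Ncl* (-0.51, adjusted p = 0.027) among the former and *Polr1a*, of the polymerase for ribosomal RNA, the latter (0.75, adjusted p = 0.017). Of the 12 regulators, *Tsc1* (0.73, adjusted p = 0.025) and *Rps6kb2* (0.72, adjusted p = 0.015) were higher and *Rheb* lower (-0.29, adjusted p = 0.039), and of the 78 mitochondrial ribosomal protein genes 3 were higher and 6 lower.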

How the data were processed

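RNA-seq of microglia from 30 mice was read from a table of FPKM that the authors deposited. For these, the authors used OmicSoft to map read pairs to mm10, estimated Ensembl gene levels by RSEM and dropped 6 libraries of low quality. 6 columns that match no listed sample were not used. FPKM hold no read totals, so absolute depth is unknown, and relative depth ran from 0.67 to 1.41. Symbols and coordinates came from GENCODE M21 on GRCm38.

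FPKM were put on a common scale by dividing each library by its median ratio to the geometric mean over libraries. Genes averaging 1 FPKM or more and above 0 in every library set this ratio. The scaled values were then taken to log2(FPKM + 0.1). They were tested with limma 3.58.1 in R 4.3.3 over 16897 genes with a mean of at least 0.1, with Benjamini-Hochberg adjustment at 0.05. All 6 groups entered the fit, except that early and late numbers were compared within the 11 Cre-positive males over 17326 genes. The count test of the authors cannot be run on FPKM. Exact permutation tests, two-sided, were run on the deposited FPKM of named members, and correlations used 100000 permutations (scipy 1.17.1). Each library was 1 mouse by its number, and p-values measure the spread between these samples.

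The members and lists were chosen with earlier results of these data known. Named were members with known roles, the extremes of level and those leading each comparison by size or p. *Rpl8*, *Rpl23*, *Rps24*, *Rps25* and *Rps15a* were named after their values were seen, and 1 member counted in the totals is not reported here by name. The fit was tested on simulated data. Alternatives changed the pseudocount (0.01 or 1), the filter (none, or a mean of 1 FPKM), scaling, weights, length and GC correction, the samples, and the number range as a term. A setting that summed members with their copies was chosen after seeing the data.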

Additional observations from a re-analysis of the deposited data

Results flagged for a closer look

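Single libraries stood apart from the rest of their group in 19 sets of values (32 kinds of value, the share and 31 members, each in 6 groups), while chance flags about 1 in 20 groups. Of these, 10 were in Homo-M-0109, the highest male Homo library for each. Its share of summed FPKM was 2.17%, against 1.34% to 1.45% in the other 4 male Homo libraries. Small subunit genes in it were *Rps16* at 123.05 FPKM (others up to 79.0), *Rps19* at 267 (154), *Rps21* at 121 (66.4) and *Rps6* at 222 (153). Large subunit genes were *Rpl13a* at 202.2 FPKM (others up to 105), *Rpl3* at 151 (129), *Rpl36al* at 181 (136), *Rpl38* at 118 (69.4) and *Rpl41* at 495 (244). These values share 1 library and are not independent.

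In WT-M-0258, *Rpl28* was at 30.6 FPKM against 16.9 to 20.7 in the other male WT libraries, and *Rps26* at 74.4 against 39.4 to 48.5. In the library labelled Het-M-0199, *Rps26* was at 62.8 FPKM against 35.0 to 41.3 and *Rps4x* at 110.02 against 65.4 to 79.99. *Rps12* was at 31.7 FPKM in Het-M-0108, against 5.49 to 14.6. *Rpl10* was low in Homo-M-0190, at 56.7 FPKM against 75.6 to 79.3. In females, *Rpl28* was at 19.6 FPKM in WT-F-0192 against 16.4 to 16.9, *Rplp0* at 106 in the same library against 127 to 129, and *Rps26* at 36.6 in Het-F-0220 against 42.5 to 44.3. Tests of sex by genotype gave 0 members past an adjusted p of 0.05.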

How the results depend on the processing

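Under 13 alternatives other than leaving out a library, 1 of them (members summed with copies) chosen after seeing the data, 0 members passed an adjusted p of 0.05 in each genotype comparison and interaction, and the medians ran from 0.09 to 0.24 in male Homo and from 0.17 to 0.31 in male Het mice. Fits with number range as a term and of late numbered mice alone were among these 13. With each library left out in turn, the number passing ran from 0 to 4 in male Homo mice and was 0 in the other genotype comparisons, and the medians ran from 0.02 to 0.31 in male Homo and from 0.12 to 0.37 in male Het mice. Between early and late numbers the 5 calls (15.9% of all genes) became 11 with all 30 libraries (24.6%), 26 with array weights (29.7%), 10 with the length and GC correction (16.9%), 10 with a mean of at least 1 FPKM (26.6%), 0 without a filter (4.41%) and 2 without the libraries labelled Het-F-0206 and Het-M-0199 (9.48%), and ran from 0 to 26 with a library left out. The cause was not tested. Of 2821 recomputed changes of named members, 2669 kept their direction and side of the threshold, 147 changed sign without being called and 5 passed anew. No paired analysis was possible because the labels give no litter. The paper describes the WT mice as littermates, and shared litters do not enter the p-values. Absolute depth is unknown, which limits what can be said of the lowest members.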
